A study of Homo sapiens with 20 samples.

Results

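Aminoacyl-tRNA synthetases attach each amino acid to its transfer RNA, the step that fixes the genetic code before a ribosome reads it. Human cells hold a set for the cytosol and a separate set, also coded in the nucleus, for the mitochondrial ribosome, which makes core subunits of the respiratory chain. Of the 46425 genes in the deposited transcript tables, 38 were taken by name: symbols of 1 letter followed by ARS, with or without a final digit, together with FARSA, FARSB and EPRS1, provided that a curated RefSeq mRNA stands behind them. Symbols that end in 2 were read as mitochondrial enzymes (17 genes) and the others as cytosolic (20 genes). TARS3, a second threonyl-tRNA synthetase, falls in neither class. All 38 passed the filter on low counts, with a lowest count of 19 for PARS2 in any library.

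The cells were HUDEP-2, an immortalized erythroid progenitor line from human umbilical cord blood, of wild-type genotype. RNA was sequenced on day 0, before differentiation, and on days 1 to 8 and 12 after transfer to differentiation medium, which holds transferrin, serum, heparin, insulin, erythropoietin, stem cell factor (SCF) and doxycycline. Before differentiation the study expanded the cells in a serum-free medium with SCF, erythropoietin, dexamethasone and doxycycline. Every later day therefore differs from day 0 in medium as well as in time. SCF was withdrawn on day 6 and doxycycline on day 8, so day 12 differs from day 8 in medium as well as in time. Each of the 10 days had 2 libraries of 52131713 to 70358198 counts. The columns name days without replicate numbers, and below the library from the tables of separate days is called the first set and that from the table of all days the second. The study calls its pairs before differentiation and on day 8 biological replicates. For the other days nothing in the sources used here says that both libraries came from separate cultures. The spread was estimated over all 20 libraries together. P-values of every comparison, day 8 against day 0 included, thus measure a spread that may be partly technical.

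The markers followed the label. The summed level of 10 erythroid markers was 31021 to 31601 TPM (read counts scaled for transcript length and to the same total in each library) on day 0 and 591736 to 625979 TPM on day 12, while KIT, the SCF receptor, was at 305 to 349 TPM at the start and at 0.224 to 0.935 TPM at the end. On days 0, 4, 8 and 12 the 3 B cell markers were at 0, the 2 T cell and 2 stroma markers summed to at most 0.437 TPM and the 4 monocyte and granulocyte markers to at most 1.49 TPM. The 3 mast cell and basophil markers summed to 8.81 to 9.77 TPM on day 0 and to at most 0.0286 TPM on day 12. The 3 megakaryocyte markers summed to 10.7 to 69.0 TPM on day 0, with the libraries far apart, and to 0.465 to 1.03 TPM on day 12. Of them ITGA2B, an integrin of early progenitors too, averaged 39.8 TPM on day 0 and 0.747 TPM on day 12, with PF4 at 0. On days 7 and 8 the libraries of the first set held 18.5% and 17.5% ribosomal RNA counts, against 1.03% to 4.08% in all others. Globin counts reached 28.2% and 33.7% on day 12, so a share of the total, such as TPM, falls there for most other genes. Changes between days are therefore given on counts scaled with TMM factors (edgeR, 1 fit over 20 libraries, 16784 genes, Benjamini-Hochberg adjusted p under 0.05 counted as called), with the TPM beside them. In bulk RNA, fewer cells that express a gene and less RNA per cell cannot be told apart.

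When amino acids run short, ATF4 activates many genes through the C/EBP-ATF response element, whose core reads TGATGNAA. RefSeq promoter sequences (GRCh38.p14, 250 bases before to 50 after each gene's start) were at hand for 30 of the 38 genes, and both strands were searched. The core occurred in 1270 of 35116 promoters (3.62%), in 6 of 16 cytosolic synthetase promoters and in 1 of 14 mitochondrial ones. The matched stretches, 30 bases each on the strand of the gene, are shown because the letters are the same in all 6 cytosolic genes; capitals mark the match. A match is a description of letters and not of a bound site.

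AARS1, chr16:70289675-70289704, minus strand: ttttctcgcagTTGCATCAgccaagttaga
CARS1, chr11:3057407-3057436, minus strand: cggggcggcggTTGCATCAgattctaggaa
IARS1, chr9:92293692-92293721, minus strand: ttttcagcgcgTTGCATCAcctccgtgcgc
MARS1, chr12:57488053-57488082, plus strand: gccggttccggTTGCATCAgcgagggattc
NARS1, chr18:57621804-57621833, minus strand: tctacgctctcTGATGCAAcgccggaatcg
TARS1, chr5:33440956-33440985, plus strand: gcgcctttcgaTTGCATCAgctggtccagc
YARS2, chr12:32756076-32756105, minus strand: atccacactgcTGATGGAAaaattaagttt

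All 6 cytosolic genes carried TGATGCAA, read on the gene's own strand in NARS1 and on the opposite strand in the other 5, and the mitochondrial gene YARS2 carried TGATGGAA. In CARS1, IARS1, MARS1, NARS1 and TARS1 the match lay within 22 bases of the start in the RefSeq promoter table, and in AARS1 it lay 180 to 187 bases upstream. For TARS1 the files' own annotation begins further upstream, at chr5:33440696. Of the 7 cytosolic genes with a promoter sequence that were called higher on day 8 (below), 4 held the core. Of the 7 not called on that day 2 held it, and of the 2 called lower 0 held it. WARS1, GARS1 and EPRS1, also higher on day 8, had no match in this window. For comparison, 5 of the 15 promoters at hand (33.3%) from the list of amino acid response genes (below) held the core.

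On day 0 the cytosolic enzymes stood well above the mitochondrial ones. Per length, the median level was 176 TPM for the former and 29.8 TPM for the latter. FARSA, the catalytic subunit of the phenylalanine enzyme, was highest at 354 and 326 TPM in the first and second set. KARS1 followed at 300 and 334 TPM and SARS1 at 309 and 264 TPM. The libraries of FARSA and KARS1 overlap, as do those of KARS1 and SARS1, so neighbours in this order do not differ beyond their spread. HARS1 (83.4 and 93.6 TPM), WARS1 (67.8 and 80.0 TPM) and CARS1 (44.0 and 46.4 TPM) were the lowest cytosolic members. Among mitochondrial enzymes IARS2 led with 82.7 and 92.7 TPM, followed by SARS2 (53.4 and 51.4 TPM) and RARS2 (50.7 and 51.9 TPM), which overlap, while HARS2, WARS2 and PARS2 closed the order at 17.4, 15.2 and 6.55 TPM on average. FARSB, which pairs with FARSA in 1 enzyme, had 82.9 and 97.9 TPM, so the mRNAs of the subunits were not at equal levels.

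The balance between both compartments shifted towards the cytosol. The ratio of summed cytosolic to summed mitochondrial TPM, which does not depend on how libraries are scaled to each other, was 6.54 ± 0.07 on day 0 (mean ± SD, n = 2). It was 7.07 ± 0.22 on day 1, 7.25 ± 0.17 on day 2, 7.85 ± 0.52 on day 3, 8.24 ± 0.61 on day 4, 8.99 ± 1.06 on day 5 and 9.79 ± 1.29 on day 6. On days 7 and 8 it reached 12.4 ± 1.80 and 13.6 ± 3.14, and on day 12 it was 51.9 ± 8.84. Libraries of neighbouring days overlap from day 1 to day 2, from day 3 through day 6 and from day 7 to day 8, and are apart at the other steps. The lower library of day 4 (7.81) lay above the higher library of day 0 (6.59), and the lower library of day 12 (45.7) above the higher library of day 8 (15.9). On day 8 the first set gave 15.9 and the second, with its low ribosomal RNA share, 11.4. Both sums fell in TPM between day 8 and day 12, the cytosolic one from 3212 ± 554 to 1743 ± 15.6 TPM and the mitochondrial one from 247 ± 97.5 to 34.0 ± 5.49 TPM. On TMM-scaled CPM (counts relative to the scaled library total) the cytosolic sum went the other way, from 5845 ± 257 to 7741 ± 1262. A large part of that rise was 1 gene, SARS1, which went from 223 ± 15.2 to 1576 ± 796 CPM. Of the 20 cytosolic members 7 were called higher and 9 lower between these days, with a median log2 fold change of -0.06. The mitochondrial sum went from 428 ± 116 to 149 ± 3.33. Neither the sums nor the ratio were computed without SARS1. No test was run on the sums.

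**Figure D1:**
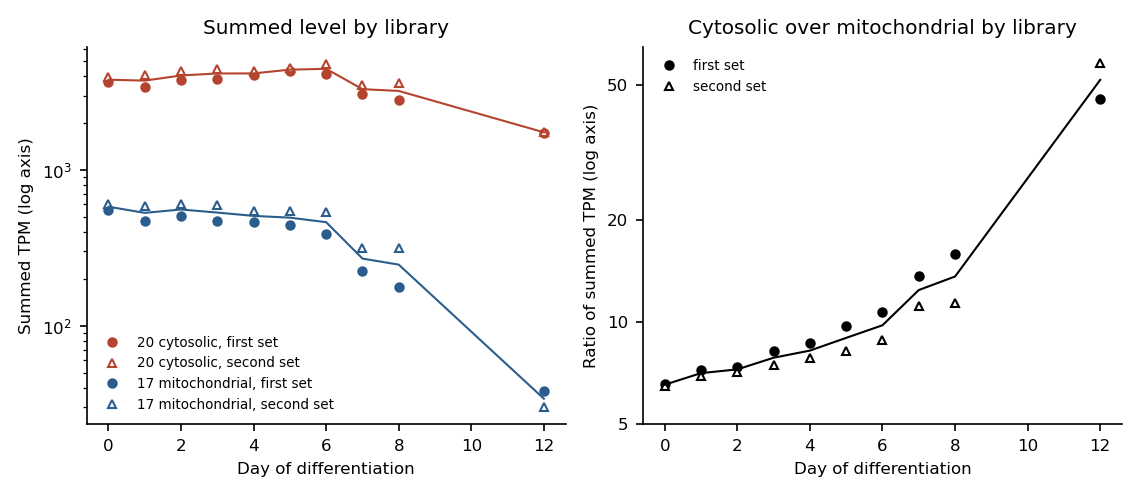
Left, summed TPM of the 20 cytosolic and 17 mitochondrial synthetases in each library (log axis) against the day of differentiation; right, the ratio of these sums (log axis). Filled circles are the first set, open triangles the second, and lines join the means of the 2 libraries; the ratio goes from 6.54 on day 0 to 51.9 on day 12.

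WARS1, the tryptophan enzyme, which is also known as a target of interferon, was the member called on day 1. Its gene lies at chr14:100333790-100376327 (hg38). It had 74.1 and 83.6 CPM on day 0 and 176 and 193 CPM on day 1, with no overlap, and 67.8 and 80.0 against 148 and 173 in TPM. The log2 fold change was 1.22 ± 0.16 (SE, edgeR adjusted p = 0.00356), the only call among the 38 genes, where 0.262% of all genes tested were called higher and 0.131% lower. AARS1 (0.48 ± 0.18, adjusted p = 0.39) and TARS2 (0.51 ± 0.28, adjusted p = 0.671) had the largest other values in each compartment. The set of each library, first or second, was also fitted as a block, called the deposited table as a block below. With it TARS2 (0.52, adjusted p = 0.0189) was called higher too and TARS3 lower. Without the first day 0 library WARS1 was not called (log2 1.14, adjusted p = 0.102). Counts of WARS1 are divided over 13 transcripts, and curated mRNAs held 61.3% of its TPM. On these alone the change was 0.91 (adjusted p = 0.114).

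By day 4, 7 cytosolic enzymes were called higher than on day 0, 0 were lower, and 0 of the 17 mitochondrial enzymes were called in either direction. Over all genes 2.93% were higher and 2.35% lower. WARS1 had 241 and 283 CPM against 74.1 and 83.6 CPM on day 0, a 3.33-fold increase (log2 1.73 ± 0.16, adjusted p = 6.44e-05). AARS1, which charges alanine, had 264 and 287 CPM against 127 and 165 CPM (log2 0.92 ± 0.18, adjusted p = 0.00975). CARS1, which charges cysteine, had 90.9 and 77.1 CPM against 51.3 and 49.3 CPM (log2 0.74 ± 0.18, adjusted p = 0.03). The days did not overlap for any of the 3. GARS1, EPRS1, MARS1 and YARS1 were higher by 0.43 to 0.72 on the log2 scale. HARS1 (0.55 ± 0.16, adjusted p = 0.0623) and, among mitochondrial enzymes, PARS2 (-0.68 ± 0.29, adjusted p = 0.213) had the largest values that did not pass. These calls were near the threshold: the count was 1 without either day 4 library and without the first day 0 library, and 2 without the second day 0 library, with WARS1 kept in all 4. On curated mRNAs alone, which hold 29.4% of the TPM of CARS1, its value turned to -0.15 (adjusted p = 0.955).

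On day 8 the compartments moved apart. Of 20 cytosolic enzymes 8 were called higher and 3 lower than on day 0, while of 17 mitochondrial enzymes 0 were higher and 9 lower. All 17 mitochondrial values were negative, with a median log2 fold change of -0.81, against 0.13 for the cytosolic enzymes and 0.00 for all genes tested, of which 17.7% were higher and 19.4% lower. The first day 8 library, with 17.5% ribosomal RNA counts, carried much of the number: without it 2 mitochondrial enzymes (IARS2 and PARS2) and RARS1 remained lower, and 13 of the 17 values were negative with a median of -0.50. The 8 cytosolic calls were made again without that library and without each of the other 3.

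Among the cytosolic enzymes WARS1 had 344 and 278 CPM on day 8 against 74.1 and 83.6 CPM on day 0, a 3.95-fold increase (log2 1.98 ± 0.16, adjusted p = 2.11e-06). CARS1 had 171 and 141 CPM against 51.3 and 49.3 CPM (3.10-fold, log2 1.63 ± 0.18, adjusted p = 2.48e-05). AARS1 had 487 and 395 CPM against 127 and 165 CPM (3.02-fold, log2 1.60 ± 0.18, adjusted p = 3.02e-05). For each of the 3, both day 8 libraries stood far above both day 0 libraries. On curated mRNAs alone CARS1 (0.68, adjusted p = 0.277) and YARS1 (0.24, adjusted p = 0.749) lost the call, and 6 mitochondrial enzymes were called lower. GARS1, which serves both compartments from 1 gene, had 649 and 534 against 246 and 237 CPM and rose by 1.29 ± 0.19 (adjusted p = 0.000231). EPRS1, a fusion that charges glutamate and proline, had 630 and 713 against 313 and 372 CPM and rose by 0.97 ± 0.15 (adjusted p = 0.000337). MARS1 (0.82), TARS1 (0.64) and YARS1 (0.62) completed the higher group. In TPM, where the median of all genes was shifted by -0.34 on the log2(TPM + 1) scale, limma called 4 of these 8 higher (AARS1, CARS1, GARS1 and WARS1), against 7.29% of all genes, and no other member.

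RARS1, the arginine enzyme, was the largest cytosolic decrease on day 8. It had 115 and 112 CPM on day 0 and 38.5 and 65.6 CPM on day 8, with no overlap (log2 -1.12 ± 0.22, adjusted p = 0.00163). FARSA fell by 0.73 on the log2 scale (adjusted p = 0.00976). VARS1 had 405 CPM in each day 0 library against 155 and 295 CPM and did not pass (log2 -0.85 ± 0.34, adjusted p = 0.0634). KARS1, the lysine enzyme and the other gene that serves both compartments, had 252 and 267 CPM on day 0 and 184 and 233 CPM on day 8 (log2 -0.32 ± 0.16, adjusted p = 0.13). The KARS1 transcript that codes for the mitochondrial form held 20.4% to 31.8% of the gene's TPM over the 20 libraries. Its share was 20.4% and 24.7% in the day 0 libraries and 31.8% and 23.9% in the day 8 libraries, which overlap. On day 12 it was 27.8% and 28.5%, above both day 0 libraries. No test was run on these shares, and how the authors divided reads between overlapping transcripts was not given in the sources used here.

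PARS2, the mitochondrial proline enzyme and the lowest member, had 6.21 and 6.22 CPM on day 0 and 1.87 and 2.28 CPM on day 8 (log2 -1.58 ± 0.29, adjusted p = 0.00106). MARS2, which charges the mitochondrial methionine tRNA, went from 40.6 and 36.7 CPM to 10.1 and 17.3 CPM (log2 -1.50 ± 0.38, adjusted p = 0.00836). EARS2, the mitochondrial glutamate enzyme, went from 42.8 and 42.3 CPM to 11.3 and 20.4 CPM (log2 -1.42 ± 0.42, adjusted p = 0.0168). In all 3 the day 8 libraries lay below both day 0 libraries, and for EARS2 and MARS2 the first of them, with its high ribosomal RNA share, was well below the second. IARS2, NARS2, YARS2, LARS2, SARS2 and CARS2 were lower by 0.81 to 1.28. The remaining 8 were not called, with FARS2 the largest (-0.58 ± 0.22, adjusted p = 0.0577). With the deposited table as a block, 17 members in place of 12 were called lower on day 8, among them VARS1 (adjusted p = 0.00113), FARS2 (adjusted p = 0.00123), KARS1, VARS2 and TARS3. On the TPM scale limma called 10 cytosolic and 16 of the 17 mitochondrial enzymes lower, against 39.7% of all genes.

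**Figure D2:**
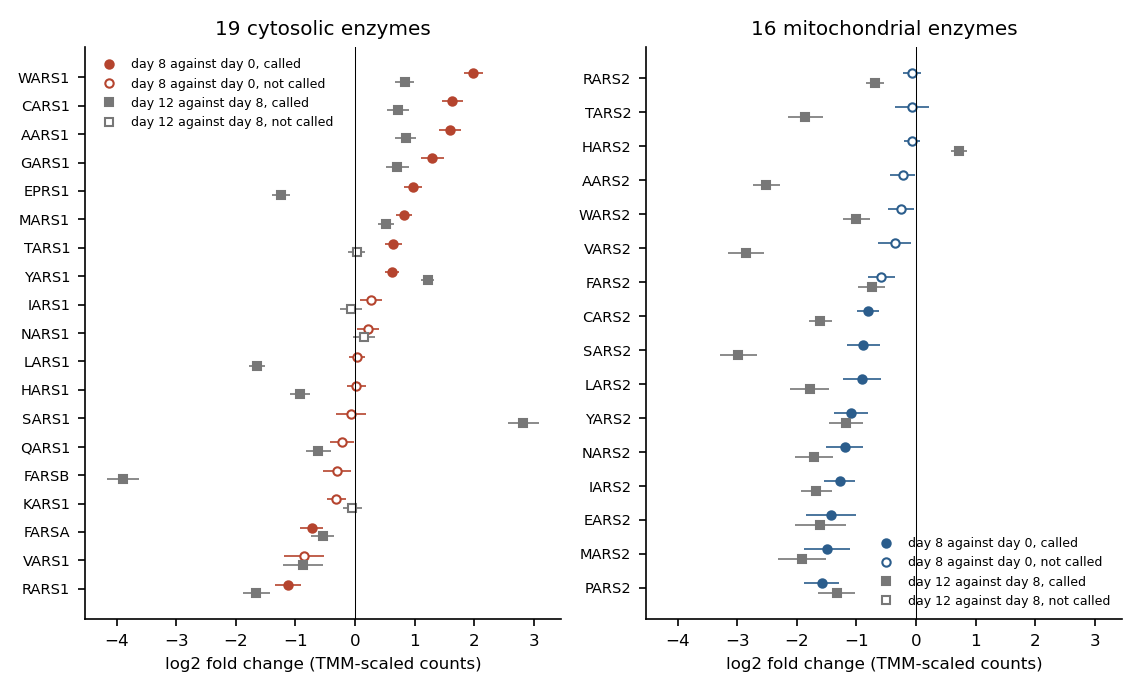
Log2 fold changes of TMM-scaled counts with their standard errors for 19 cytosolic (left) and 16 mitochondrial (right) enzymes, ordered by day 8 against day 0 (circles); grey squares are day 12 against day 8, and filled symbols passed an adjusted p of 0.05 (edgeR). All 16 mitochondrial circles lie left of 0, and SARS1 and FARSB are the extremes of the cytosolic squares.

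Between day 8 and day 12 the cytosolic set split. On TMM-scaled counts 7 of 20 cytosolic enzymes were called higher and 9 lower. Of the mitochondrial enzymes 16 of 17 were lower and 1, HARS2, was higher, and TARS3, with 12.4 and 13.2 CPM on day 8 and 23.9 and 24.1 CPM on day 12, was higher as well (log2 0.90 ± 0.18, adjusted p = 0.000687), though not in TPM (5.41 and 6.92 against 4.89 and 3.84). Over all genes 23.8% were higher and 33.4% lower, with a median of -0.20. The median was -1.67 for the mitochondrial and -0.06 for the cytosolic enzymes. Some calls hung on 1 library: GARS1 was not called without the second library of day 8 or of day 12 nor MARS1 without the latter, QARS1 and VARS1 were lost without either day 12 library or the second day 8 library, and FARSA, EARS2 and FARS2 were lost in some of these fits.

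SARS1, the serine enzyme (chr1:109213893-109238182), had 233 and 212 CPM on day 8 and 1013 and 2139 CPM on day 12 (log2 2.82 ± 0.27, adjusted p = 9.21e-07). It was the only cytosolic enzyme that also rose in TPM, from 172 and 190 to 357 and 579 TPM (limma log2 1.32, adjusted p = 1.64e-05), with the day 12 libraries far apart from each other. SARS1 made up 7.59% ± 1.24 of the summed cytosolic TPM on day 0, 5.69% ± 0.59 on day 8 and 26.8% ± 8.76 on day 12 (SD, n = 2). Its level had been 257 and 208 CPM on day 0, and it was not called on days 1, 4 or 8.

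The other 6 higher on day 12, YARS1 (1.22 ± 0.11, adjusted p = 7.73e-07), AARS1 (0.85), WARS1 (0.83), CARS1 (0.72), GARS1 (0.70) and MARS1 (0.52), turned direction with the scale. AARS1, for example, had 487 and 395 CPM on day 8 and 734 and 854 CPM on day 12, but 212 and 207 TPM against 148 and 131 TPM. The median of all genes was shifted by -0.68 on the log2(TPM + 1) scale, and on it limma called 18 cytosolic and all 17 mitochondrial enzymes lower and SARS1 alone higher, against 53.6% and 8.38% of all genes. As shares of the summed cytosolic TPM, which no scaling changes, AARS1 was at 7.51% and 5.75% on day 8 and 8.55% and 7.45% on day 12, and YARS1 at 5.77% and 5.63% and then 9.07% and 8.44%. The 5 most abundant cytosolic enzymes took 39.7% of the sum on day 0 (FARSA, KARS1, SARS1, TARS1 and IARS1), 41.8% on day 8 and 63.6% on day 12 (SARS1, GARS1, YARS1, AARS1 and WARS1). FARSA, KARS1, TARS1 and IARS1 thus no longer stood among the first 5.

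**Figure D3:**
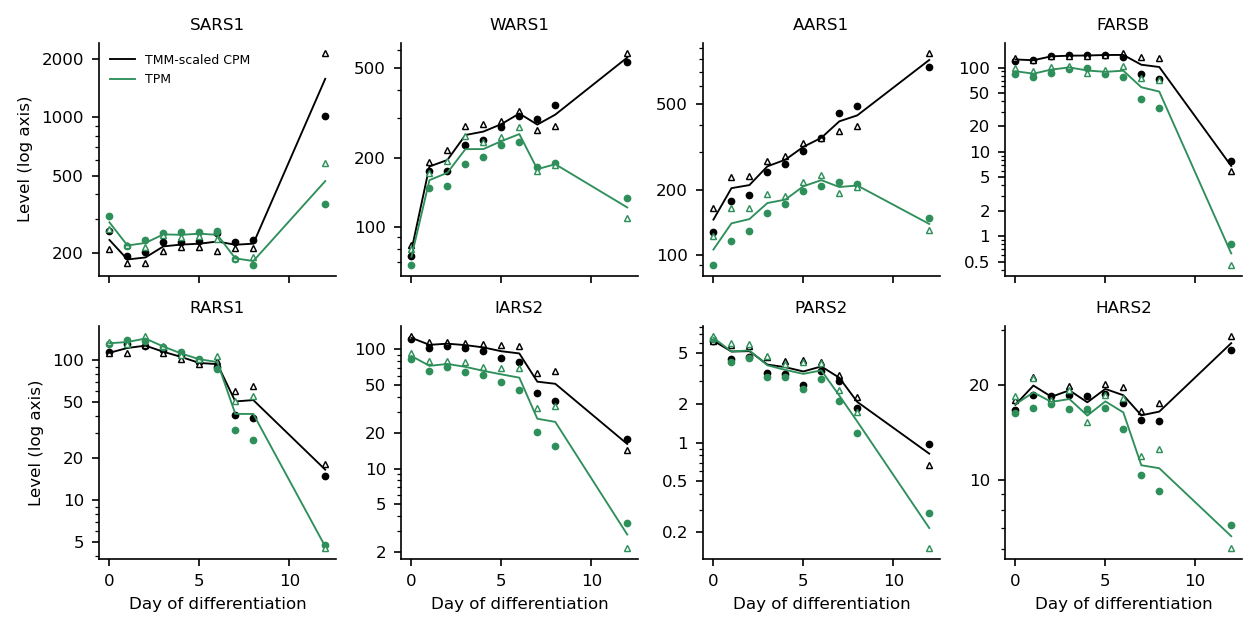
Level of 8 synthetases in each library (log axis) against the day of differentiation, as TMM-scaled CPM (black) and as TPM (green), with the first set as filled circles, the second as open triangles and lines through the means. WARS1 and AARS1 go up in CPM and down in TPM from day 8 to day 12, SARS1 goes up and FARSB, RARS1, IARS2 and PARS2 go down on both scales, and HARS2 parts between them.

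FARSB, the beta subunit of the phenylalanine enzyme (chr2:222566899-222656092), had the largest decrease of all members. It went from 73.5 and 129 CPM on day 8 to 7.74 and 5.85 CPM on day 12 (log2 -3.90 ± 0.27, adjusted p = 4.9e-08), and from 33.1 and 70.6 TPM to 0.798 and 0.452 TPM. Its partner FARSA fell much less, from 132 and 168 CPM to 91.1 and 116 CPM (log2 -0.54 ± 0.19, adjusted p = 0.0271). RARS1 (-1.66), LARS1 (-1.65), EPRS1 (-1.24), HARS1 (-0.92), VARS1 (-0.87) and QARS1 (-0.61) were lower too. NARS1 had the largest value that did not pass (0.15 ± 0.18, adjusted p = 0.515). EPRS1, higher on days 4 and 8, was at 304 and 265 CPM on day 12, below its 313 and 372 CPM on day 0.

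Among the mitochondrial enzymes SARS2 went from 16.8 and 27.2 CPM to 3.29 and 2.27 CPM (log2 -2.98 ± 0.31, adjusted p = 2.12e-06), opposite to its cytosolic counterpart SARS1. VARS2 went from 37.5 and 45.8 CPM to 5.16 and 6.35 CPM (log2 -2.86 ± 0.30, adjusted p = 2.45e-06). The smallest mitochondrial decreases called were RARS2 (-0.69) and FARS2 (-0.74). HARS2 had 15.4 and 17.6 CPM on day 8 and 25.9 and 28.7 CPM on day 12 (log2 0.73 ± 0.14, adjusted p = 0.000405), yet 9.23 and 12.5 against 7.17 and 6.03 TPM, where limma called it lower. HARS1 and HARS2 lie head to head and share 273 bases at chr5:140691455-140691727 in the files' annotation. Whether the authors counted by strand is not given in the sources used here, so reads of this overlap may be split wrongly between them.

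Enzymes for the same amino acid can be set side by side in each library without scaling. There are 18 such pairs, in which EPRS1 and FARS2 each appear in 2. The ratio of cytosolic to mitochondrial TPM was higher in both day 8 libraries than in both day 0 libraries for 13 pairs, lower for 3 (RARS1 and VARS1 over their counterparts among them) and overlapping for FARSA over FARS2 and HARS1 over HARS2. Between day 12 and day 8 it was higher for 11, lower for 3 and overlapping for 4. These counts are a description. No test was run on them, and the share of other gene pairs without overlap was not computed. SARS1 over SARS2 was 5.79 and 5.14 on day 0, 13.2 and 7.45 on day 8 and 304 and 943 on day 12. CARS1 over CARS2 was 0.944 and 0.928 on day 0, with the mitochondrial enzyme above the cytosolic one in both libraries, and 26.4 and 27.2 on day 12. AARS1 over AARS2 went from 3.92 and 4.28 to 132 and 151. The reverse occurred for FARSB over FARS2, at 3.00 and 3.06 on day 0 and 0.256 and 0.160 on day 12, and for RARS1 over RARS2, at 2.58 and 2.60 and then 0.582 and 0.671.

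**Figure D4:**
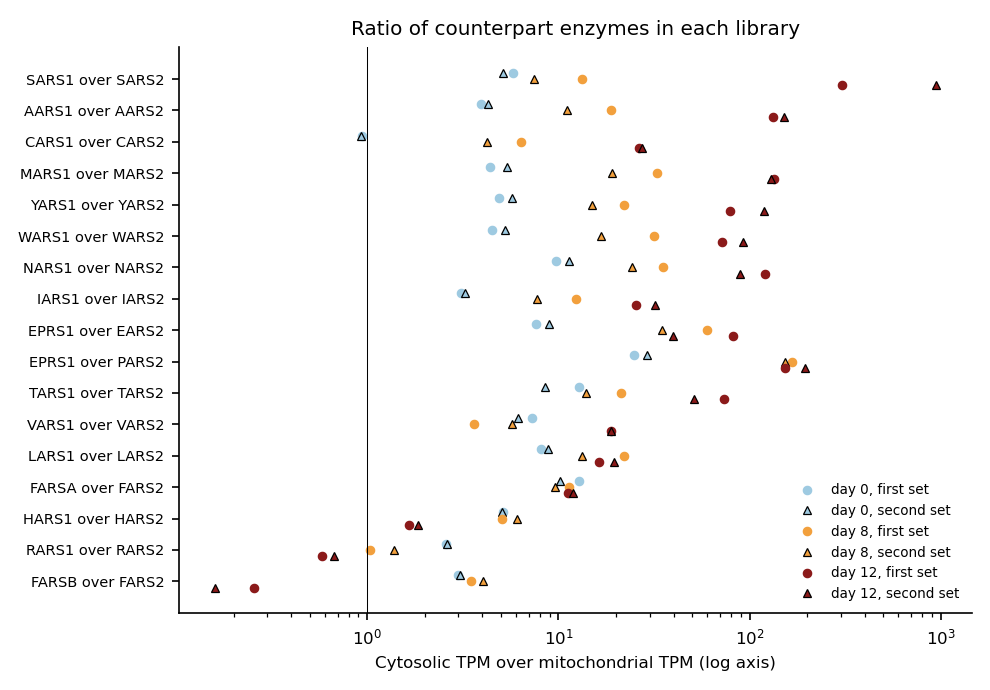
Ratio of cytosolic to mitochondrial TPM for 17 pairs of enzymes for the same amino acid (log axis) in each library of days 0, 8 and 12, ordered by the change from day 0 to day 12; circles are the first set and triangles the second. SARS1 over SARS2 reaches 304 and 943 on day 12, and FARSB over FARS2 drops to 0.256 and 0.160.

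In the cytosol 8 of these genes form the multi-synthetase complex with 3 scaffold proteins. The 8 complex enzymes, EPRS1, MARS1 and RARS1 among them, had 2 members higher (EPRS1 and MARS1) and 2 lower (RARS1 being 1 of them) on day 8 against day 0, with a median of -0.09, and these shares of 25.0% each are near the 17.7% and 19.4% over all genes. The 12 outside it had 6 higher and 1 lower, with a median of 0.42. From day 8 to day 12 the complex had 1 higher (MARS1) and 5 lower with a median of -0.93. The others had 6 higher and 4 lower with a median of 0.43. Over all genes 23.8% were higher and 33.4% lower between these days. The share lower outside the complex (33.3%) was thus near that of all genes, and the share lower within it (62.5%) was above. The direction of MARS1 and of 5 of the 6 higher outside the complex turned on the TPM scale. The difference between both groups was not tested. Of the scaffold genes AIMP2 (-0.46 ± 0.15, adjusted p = 0.0297) and EEF1E1 (-0.51 ± 0.12, adjusted p = 0.00393) were lower on day 8 and AIMP1 was not called. From day 8 to day 12 EEF1E1 (-1.86 ± 0.12, adjusted p = 2.54e-08) and AIMP1 (-0.53 ± 0.16, adjusted p = 0.00982) were lower and AIMP2 was higher (0.51 ± 0.15, adjusted p = 0.0119), although the mean level of AIMP2 in TPM was 32.9 on day 8 and 16.6 on day 12.

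The enzymes fall into class I and class II by their catalytic fold, and a difference between the classes was not tested. On day 8, beside the 17.7% higher and 19.4% lower over all genes, the cytosolic class I had 4 of 9 higher and 1 lower (median 0.27), and the cytosolic class II 3 of 10 higher and 2 lower (median -0.02); EPRS1, which holds both folds, was left out of this split.

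Companion genes of tRNA charging and of the mitochondrial ribosome were read beside the synthetases. Unlike the synthetases, these genes and the scaffold genes above were not checked with a library left out, the first day 8 library included. Human mitochondria have no glutamine enzyme of their own and make that charged tRNA with an amidotransferase. Its subunit genes QRSL1 (-1.01 ± 0.19, adjusted p = 0.00109) and GATB (-1.02 ± 0.21, adjusted p = 0.00195) were lower on day 8, and GATC was not called (-0.11 ± 0.12, adjusted p = 0.49). MTFMT, which formylates the initiator methionine in mitochondria, was lower by 1.10 ± 0.23 (adjusted p = 0.00268). Of the 14 companions 9 were lower, against 19.4% of all genes, and 2 were higher, against 17.7%, SEPSECS (1.21), which makes selenocysteine on its tRNA, and XPOT (0.61), the nuclear exporter of tRNA. From day 8 to day 12, 9 of the 14 were lower, against 33.4% of all genes, and XPOT and SEPHS2 were higher, where XPOT in TPM averaged 120 on day 0, 120 on day 8 and 118 on day 12. The mitochondrial elongation factors TUFM (-1.39 ± 0.23, adjusted p = 0.000466), TSFM (-0.81 ± 0.27, adjusted p = 0.0312) and GFM1 (-0.74 ± 0.21, adjusted p = 0.0144) were lower on day 8 and GFM2 was not called. The 5 cytosolic factors EEF1A1, EEF1B2, EEF1D, EEF1G and EEF2 were not called. Of 78 mitochondrial ribosomal protein genes 42 (53.8%) were lower on day 8 and 0 higher, against 9 of 17 (52.9%) mitochondrial synthetases. Of 83 cytosolic ribosomal protein genes tested 13 (15.7%) were higher, near the 17.7% over all genes, and 6 (7.23%) lower. Between day 8 and day 12, 39 of the 78 mitochondrial ribosomal protein genes were lower and 14 higher, with a median of -0.51. Of the 17 mitochondrial synthetases 16 were lower and 1 higher in that step, with a median of -1.67. GFM1, GFM2 and TSFM were lower there too, and TUFM was not called (log2 0.14, edgeR adjusted p = 0.629). The difference between these groups was not tested.

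Amino acid response genes are the known company of the cytosolic enzymes. Of 18 such genes on the list, 0 were called on day 1, 7 (38.9%) were higher on day 4 and 16 (88.9%) higher and 1 lower (PSPH) on day 8, with a median of 2.88 on that day. Over all genes 2.93% were higher on day 4 and 17.7% on day 8. ASNS, which makes asparagine, averaged 62.5 TPM before differentiation, and its mean was 173 TPM by day 4 and 377 TPM by day 8 (log2 3.20 ± 0.20 on day 8, adjusted p = 3.92e-07). ATF4 itself was higher by 1.36 ± 0.24 (adjusted p = 0.000708). The serine synthesis genes differed on day 8, with PHGDH (5.59) and PSAT1 (2.33) higher and PSPH (-1.35) lower. From day 8 to day 12, 10 of the 18 genes (55.6%) were higher, against 23.8% of all genes. The 3 lower (16.7%, against 33.4% of all genes) were PHGDH (-1.91), PSAT1 (-1.51) and PSPH (-1.54). The list was chosen with results of these libraries known, so it is not independent evidence of a direction, and a link between these genes and the synthetases was not tested. Its calls were not checked with a library left out either.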

How the data were processed

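Stranded libraries of poly(A) RNA from HUDEP-2 cells were sequenced on 10 days with 2 libraries each. Per the labels, reads were trimmed with Trimmomatic 0.38, aligned to hg38 with HISAT2 2.1.0 and passed to StringTie 2.1.3b. The authors deposited 4 tables of 170322 RefSeq transcripts with read counts (whole, not normalized) and TPM values, scaled by the authors for length and to each library's total, in tables made separately. The annotation release and the counting by strand are not given in the sources used here. Of the value columns 40 were read and 23 were not used, namely 21 of FPKM and 2 of a further day 0 library. Which 2 of the 3 day 0 libraries are the 2 labelled samples is not known.

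Here, transcript values were summed by symbol to 46425 genes. Counts were fitted with edgeR 4.0.16 (R 4.3.3): filterByExpr, TMM, glmQLFit and glmQLFTest, 1 coefficient per day over 20 libraries, 16784 genes, Benjamini-Hochberg adjustment over all of them. A standard error is the size of the log2 change divided by the root of its F statistic. Day 1, day 4 and day 8 were compared with day 0, which they share, and day 12 with day 8. The fit was tested on simulated data with large planted changes and less spread than these libraries had. Recovery of smaller changes at the spread seen here was not tested. DESeq2 1.42.0 and limma 3.58.1 on log2(TPM + 1) and log2(TPM + 0.1) were alternatives, with other scalings, filters and each library left out. Depth puts the limit that 3 counts allow at 0.0426 to 0.0575 CPM of the raw library totals, for counting error only. On TMM-scaled CPM the limit is higher on day 12, where the TMM factors were 0.544 and 0.464. Libraries of a day differed beyond counting noise in 69.25% to 82.38% of genes.

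Members and lists were chosen with earlier results of these data known. Genes named with full values are, per comparison and compartment, the 3 largest changes called without overlap and the largest not called, 6 genes fixed by name (GARS1, KARS1, TARS3, EPRS1, PARS2 and EARS2), the 3 highest and lowest on day 0, and counterparts. SARS1 on day 0, ratios of other pairs and shares were chosen after values were seen. Single values of some members, which enter all sums and counts, are not reported here.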

Additional observations from a re-analysis of the deposited data

How the results depend on the processing

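No paired analysis was possible because the columns carry no replicate numbers. The block used in its place was the set, first or second, with 1 library per day in each, so days were compared within sets. Whether the libraries of a set share a batch or a culture is not given in the sources used here. The block does not set apart the first-set libraries of days 7 and 8, with their high ribosomal RNA share. The number of synthetases higher on day 1 (1) was 2 with the deposited table as a block and 0 on curated mRNAs alone or with only the 4 libraries of both days, and 0 to 1 with a library left out (0 without the first day 0 library). The number lower, 0, was 1 with that block. On day 4, 7 higher became 4 with either limma fit and without a filter, 3 on curated mRNAs, 1 with the 2 days' libraries alone 1 to 2 with a library left out and 9 with the block. On day 8, 8 higher became 4 and 12 lower became 27 with either limma fit, and 8 and 17 with the block and 6 and 8 on curated mRNAs; leaving out a library gave 8 and 3 to 16 (3 without the first day 8 library, 6 without the first day 0 library). From day 8 to day 12, 9 higher became 1 with either limma fit and 5 on curated mRNAs, and 7 to 9 with a library left out, where the 25 lower became 20 to 25. CARS1 on day 4 reversed to -0.15 on curated mRNAs. With limma on log2(TPM + 0.1) and log2(TPM + 1), reversals from day 8 to day 12 were AARS1 (-0.59 and -0.59), CARS1 (-0.69 and -0.68), GARS1 (-0.74 and -0.74), HARS2 (-0.70 and -0.63), MARS1 (-0.93 and -0.92), NARS1 (-1.29 and -1.28), TARS3 (-0.49 and -0.42), WARS1 (-0.64 and -0.63) and YARS1 (-0.25 and -0.25). The median of all genes was -1.20 and -0.68 there, so a TPM change is relative to a total that globin RNA enters; the cause was not tested further. The ratio of summed TPM on day 0 was 6.28 on curated mRNAs and 5.59 without GARS1 and KARS1, and 6.95 on day 4 without those 2; with a library left out it was 6.49 to 6.59 on day 0, 7.81 to 8.67 on day 4, 11.4 to 15.9 on day 8 and 45.7 to 58.2 on day 12. The ratio from deposited FPKM was not run, since FPKM and TPM differ by 1 factor per library and give the same ratio. With 2 libraries a day, a library left out leaves a lone one assumed to vary like the others.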
